A study of Mus musculus with 24 samples.

Results

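The genes described here are 53 genes of DNA replication and S phase, measured by RNA sequencing in natural killer (NK) cells sorted from mouse spleens. They were chosen by name, as a written list matched to the gene name column of the deposited count table, and all 53 were found among its 45237 genes. All 53 also passed the filter on low counts that left 17097 genes for testing. The study followed NK cells in mice that carried tumor cells of either of 2 related lines, RMA and RMA-KR, and in mice without tumor cells. RMA is a mouse T lymphoma line. RMA-KR was made from it by disrupting B2m with CRISPR-Cas9 and adding the NKG2D ligand Rae1-β by lentivirus. By the paper both lines express ZsGreen, and RMA cells received the vector without Rae1-β. RMA-KR is a single clone grown by limiting dilution, so that its differences from RMA include anything particular to that clone. The 24 libraries fall into 7 groups, all labelled wild type: untreated control mice (4 libraries), RMA-bearing mice on day 2 (3), day 4 (3) and day 9 (3), and RMA-KR-bearing mice on day 2 (3), day 7 (5) and day 14 (3). The labels call day 2 early, days 4 and 7 intermediate, and days 9 and 14 late, so that stage is matched between the lines after day 2 but day is not, and line and day cannot be told apart there. The labels give neither strain nor age. By the methods the mice were female C57BL/6J animals aged 7 to 9 weeks unless stated otherwise, the tumor cells were injected into a vein, and cells with Ly-6G, TER-119 or T and B cell markers were removed with magnetic beads. NK cells were then sorted as stained by antibodies to NK1.1 and NKp46, which shared 1 dye, and negative for T and B cell markers, to a stated purity of at least 98%.

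DNA replication begins in G1, when the origin recognition complex, Cdc6 and Cdt1 load rings of the MCM helicase onto origins. In S phase Cdc45 and GINS turn the loaded rings into active helicases, the primase and polymerases copy the strands, the clamp PCNA and its loader keep the polymerases on the template, and flap cutting and ligation join the pieces of the lagging strand. Ribonucleotide reductase and thymidine enzymes supply nucleotides, histone chaperones and Dnmt1 rebuild chromatin and its methylation behind the fork, and the Chek1 pathway watches over stalled forks. Most of these genes are targets of E2F factors and are transcribed around the G1/S boundary. NK cells of the resting spleen are mostly out of cycle, and they divide after activation or exposure to cytokines.

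Library depth, as the sum of counts over all genes, lay between 5138651 and 14863500 around a median of 10489204. Levels are given as normalized CPM (counts scaled to a common library size after TMM), and 3 counts, taken as the limit that a count of 0 allows, correspond to 0.208 to 0.554 CPM depending on the library. This limit covers counting error only. The libraries are labelled NK cells and had NK cell markers: Ncr1 ranged from 1630 to 4040 CPM and Klrb1c from 1300 to 2540 CPM, and the 9 NK cell markers summed to 18500 to 33600 CPM. RMA being a T cell line, the 11 T cell markers bear on any RNA from tumor cells. They summed to 561, 450, 449 and 508 CPM in the control libraries, 384, 562 and 481 at RMA day 2, 409, 415 and 362 at RMA day 4 and 689, 592 and 532 at RMA day 9. The RMA-KR sums were 526, 688 and 682 CPM on day 2, 476, 511, 549, 564 and 546 on day 7 and 687, 484 and 544 on day 14. The most abundant of them, Trbc1, was present in every library at 181 to 419 CPM, whereas Cd3e, Cd4, Cd8a and Cd8b1 reached at most 5, 2.05, 1.38 and 3.57 CPM in any library and Cd5 reached 23.5 CPM in RMA day 2 library 2 and at most 1.2 elsewhere. Cd3d was at 21, 30.6 and 29.6 CPM in RMA-KR day 7 libraries 3 to 5, against 4.44 and 2.97 in libraries 1 and 2 and 6.47, 2.7, 1.26 and 14.7 in control, and Cd3g at 23.1, 24.2 and 18.9 against 7.7 and 10.9 and 4.25, 3.67, 3.58 and 14.4. Trbc1 and Trbc2 were above all control libraries in every RMA day 9 library, and Trac in every RMA-KR day 14 library. The T cell sums at RMA day 4 were below those of all control libraries, and those at RMA day 9 and RMA-KR day 14 overlapped control. These sums came mostly from Trbc1, Trbc2 and Cd28, which every control library also had, so a small share of tumor RNA could be missed in them. Cd3d and Cd3g at RMA day 4 (4.85 to 5.39 and 4.93 to 13.1 CPM) lay inside the control range. Whether RNA of T cells or tumor cells bears on the replication results was not tested.

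Of the B cell, plasma cell, macrophage, granulocyte and erythroid lists, Ms4a1, Pax5, Mzb1, Adgre1, S100a8, S100a9 and the hemoglobin genes had a median of at most 0.049 CPM, and Ighm, Xbp1, Ly6c2 and Car2 were expressed in every library. Other genes of these lists had higher values in 2 or 3 libraries of RMA-KR day 14: Cd68 at 78, 59.4 and 36.2 CPM (control 8.66 to 15.9), Igkc at 1.25, 134 and 26.3 (1.29 to 2.8), Jchain at 2.4, 17.7 and 13.8 (0 to 2.5) and Cd79b at 3.56, 17.4 and 16.6 (1.37 to 6.34). None of the 4 passed there (edgeR quasi-likelihood, Benjamini-Hochberg adjusted p = 0.179, 0.116, 0.389 and 0.511). Cd68 was also above control in all RMA day 9 libraries (24.8 to 47.8). In RMA-KR day 2 library 1, Igkc was at 59.1 and Jchain at 9.64 CPM. The granulocyte genes summed to 17.2 CPM in RMA day 9 library 2 and to at most 4.36 CPM in any other library. Among these lists, 2 genes were called in a late group against control. Car2, of the erythroid list, rose at RMA day 9 and at RMA-KR day 14 (log2 fold change 1.15 ± 0.20 in both, edgeR quasi-likelihood, Benjamini-Hochberg adjusted p = 0.00213 and 0.00361), and it made up nearly all of the erythroid sum of 471, 348, 302 and 335 CPM in control, 686, 485 and 571 at RMA day 4 (Car2 not called there, log2 fold change 0.68, adjusted p 0.0807), 904, 845 and 664 at RMA day 9 and 714, 950 and 753 at RMA-KR day 14. Ly6c2, of the macrophage and monocyte list, fell in the same comparisons (log2 fold change -1.14 ± 0.29 and -2.02 ± 0.30, edgeR quasi-likelihood, Benjamini-Hochberg adjusted p = 0.0308 and 0.00113). Whether cells bearing these markers bear on the late results was not tested.

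A set of 4 libraries stood apart: control library 4 and RMA-KR day 7 libraries 3, 4 and 5. In them 12 immediate early genes such as Fos, Jun and Dusp1, which are induced within minutes of stimulation, summed to 1341, 1303, 1450 and 1338 CPM, against 4615 to 10548 CPM in the other 20 libraries. Of the 12, Egr1, Jund and Fosb overlapped between the 2 sets. The 4 libraries also differed beyond these genes. They had 27820, 24676, 26285 and 24621 genes with a count, against at most 24234 in the other 20 libraries. Gzma was at 6070, 5030, 4760 and 4450 CPM in them and at 7780 CPM or more in the others. The labels give no reason for this split, which was found after the data were seen, and counts of called genes among the 53 that use these libraries are also given without them. Without them that count is 0 at RMA day 2, 0 at RMA-KR day 2 and 0 at RMA-KR day 7 against control, and 0 from RMA-KR day 2 to day 7. The RMA day 2 group held the lowest correlation between 2 libraries of a group, with correlations between libraries of 0.698 to 0.823 in log2 CPM. Its library 1 had no counts of Pclaf, Tk1, Chek1, Brca1, Cdc45 or Exo1.

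Summed over the 53 genes, the level was 3378 ± 197 CPM (mean ± SD, n = 4) in control NK cells, with 3197, 3544, 3554 and 3219 in the single libraries. In RMA-bearing mice the sum was 3104, 5442 and 4721 CPM on day 2, 9264, 13742 and 10852 on day 4 and 9464, 11525 and 6022 on day 9. In RMA-KR-bearing mice it was 3489, 3231 and 3268 CPM on day 2, 3797, 4364, 7877, 4677 and 6535 on day 7 and 5433, 9461 and 5337 on day 14. Replication gene RNA was thus above all control libraries in every RMA day 4, RMA day 9, RMA-KR day 7 and RMA-KR day 14 library, and highest at RMA day 4, with a mean of 11286 ± 2270 CPM (SD, n = 3). RMA-KR day 2 overlapped control, and RMA day 2 held 1 library below and 2 above it. Within RMA-KR day 7, libraries 1 and 2 had 3797 and 4364 CPM against 3197 to 3554 in control libraries 1 to 3. Libraries 3 to 5, low in immediate early genes, had 7877, 4677 and 6535 CPM against 3219 in control library 4. Library 4 was close to library 2, and libraries 3 and 5 were well above both. In bulk RNA a larger share of cells in S phase and more of these transcripts per cell cannot be told apart, nor can fewer cells of a type and less RNA per cell.

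**Figure D1:**
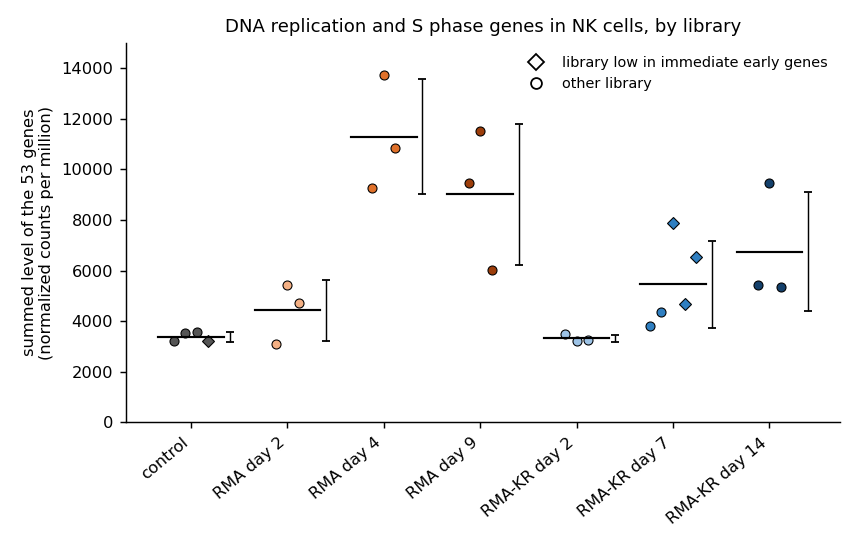
Summed normalized CPM of the 53 replication genes in each of the 24 libraries by group, with a line at the group mean, a bar of 1 SD and diamonds for the 4 libraries low in immediate early genes. The control libraries lie between 3197 and 3554 CPM and the RMA day 4 libraries between 9264 and 13742 CPM.

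To ask when the replication genes differed from those of tumor-free mice, each tumor group was compared with control, and a gene was called where the adjusted p (Benjamini-Hochberg) was under 0.05 and the fold change above 2 in either direction. The comparisons with control share the 4 control libraries, so they are not independent of each other. At RMA day 4, 29 of the 53 genes rose and none fell, against 1.65% of all tested genes called. The called genes came from every step: the helicase subunits Mcm2 to Mcm7 and Gmnn, Cdc45, the polymerase genes Pola1, Pola2, Pole, Pole2 and Prim1, the clamp genes Pcna, Pclaf and Rfc5, the ligase Lig1, the nucleotide genes Rrm1, Rrm2, Tyms, Tk1, Dut and Ung, the chromatin genes Chaf1a, Asf1b and Uhrf1, and the checkpoint genes Chek1, Clspn and Dtl. The median log2 fold change was 2.17 over the 53 genes and -0.29 over all tested genes. In 51 of the 53 genes every RMA day 4 library lay above every control library, which held for 10.2% of tested genes. The count was 19 without control library 4, 21 without the 4 libraries low in immediate early genes, 40 with no filter on low counts and 37 by DESeq2. With each of the 7 libraries left out in turn, 17 genes were called every time: Mcm2, Mcm4, Mcm5, Mcm6, Mcm7, Prim1, Rfc5, Rrm1, Rrm2, Tyms, Lig1, Uhrf1, Chaf1a, Pclaf, Dut, Dtl and Asf1b. Pola1, Pole, Tk1, Gmnn and Clspn missed the call in 1 of the other settings with all libraries (highest adjusted p 0.0654, 0.0736, 0.0571, 0.0569 and 0.0862).

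At RMA day 9, 19 of the 53 genes rose and none fell, against 1.79% of all tested genes. These were Mcm6, Mcm7, Gmnn, Cdc45, Prim1, Pola1, Pcna, Pclaf, Rfc5, Lig1, Rrm1, Rrm2, Tyms, Tk1, Dut, Chaf1a, Asf1b, Uhrf1 and Dtl, so that all but Ung of the nucleotide genes passed while 3 of the 12 licensing genes did. The median log2 fold change was 1.73 over the 53 genes and -0.18 over all tested genes, and in 45 genes every RMA day 9 library lay above every control library (9.24% of tested genes). RMA day 9 library 3 had the lowest sum of its group, and the count moved with single libraries: it was 9 without RMA day 9 library 2, 12 without control libraries 2 or 4 and 29 without RMA day 9 library 3. It was 17 without the 4 libraries low in immediate early genes, 31 in a fit of only the 7 libraries compared, 33 with no filter on low counts and 34 by DESeq2. Mcm6, Prim1, Rrm1, Rrm2, Tyms, Lig1, Pclaf, Dtl and Asf1b were the 9 genes called with each library left out. Uhrf1, Chaf1a and Pola1 missed it in 1 of the other settings (highest adjusted p 0.0707, 0.0591 and 0.05).

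At RMA-KR day 14, 9 of the 53 genes rose and none fell, against 0.983% of all tested genes. Among them 4 supply nucleotides (Rrm1, Rrm2, Tyms and Tk1), and the others were the helicase subunit Mcm6, the clamp genes Pclaf and Rfc5, the histone chaperone Asf1b and Dtl. The median log2 fold change was 1.30 over the 53 genes and -0.18 over all tested genes, and in 33 genes every RMA-KR day 14 library lay above every control library (5.88% of tested genes). With 1 library left out the count was 2 without control library 2, 3 without control library 4 or RMA-KR day 14 library 2, 4 without control library 3 and 5 without control library 1, and it was 4 without the 4 libraries low in immediate early genes, 4 with the replicate number as a block, 28 with no filter on low counts and 18 by DESeq2. Rrm2 and Asf1b were called with each of the 7 libraries left out. Tyms missed it in 2 of the other settings (highest adjusted p 0.166).

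At RMA-KR day 7 no member passed (0.0175% of tested genes were called), by edgeR's quasi-likelihood test; 20 members had an unadjusted p under 0.05, and DESeq2 called 1. The median log2 fold change over the 53 genes was 0.88, and 0.28 without the 4 libraries low in immediate early genes, against 0.01 over all tested genes. In 7 genes every RMA-KR day 7 library lay above every control library (1.33% of tested genes). The edgeR count was 1 without RMA-KR day 7 library 2, and 12 with no filter on low counts.

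On day 2 no member passed in either line by edgeR's quasi-likelihood test or by DESeq2: the share of all tested genes called was 0% in RMA and 0.0819% in RMA-KR, and 10 and 5 members had an unadjusted p under 0.05. The median log2 fold change over the 53 genes was 0.65 at RMA day 2, with a range of 0.33 (without RMA day 2 library 2) to 0.81 (without RMA day 2 library 1) when 1 library was left out, and 0.01 at RMA-KR day 2. With no filter on low counts the RMA day 2 count was 6. RMA day 2 libraries 2 and 3 had higher sums than any control library, and library 1 did not.

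**Figure D2:**
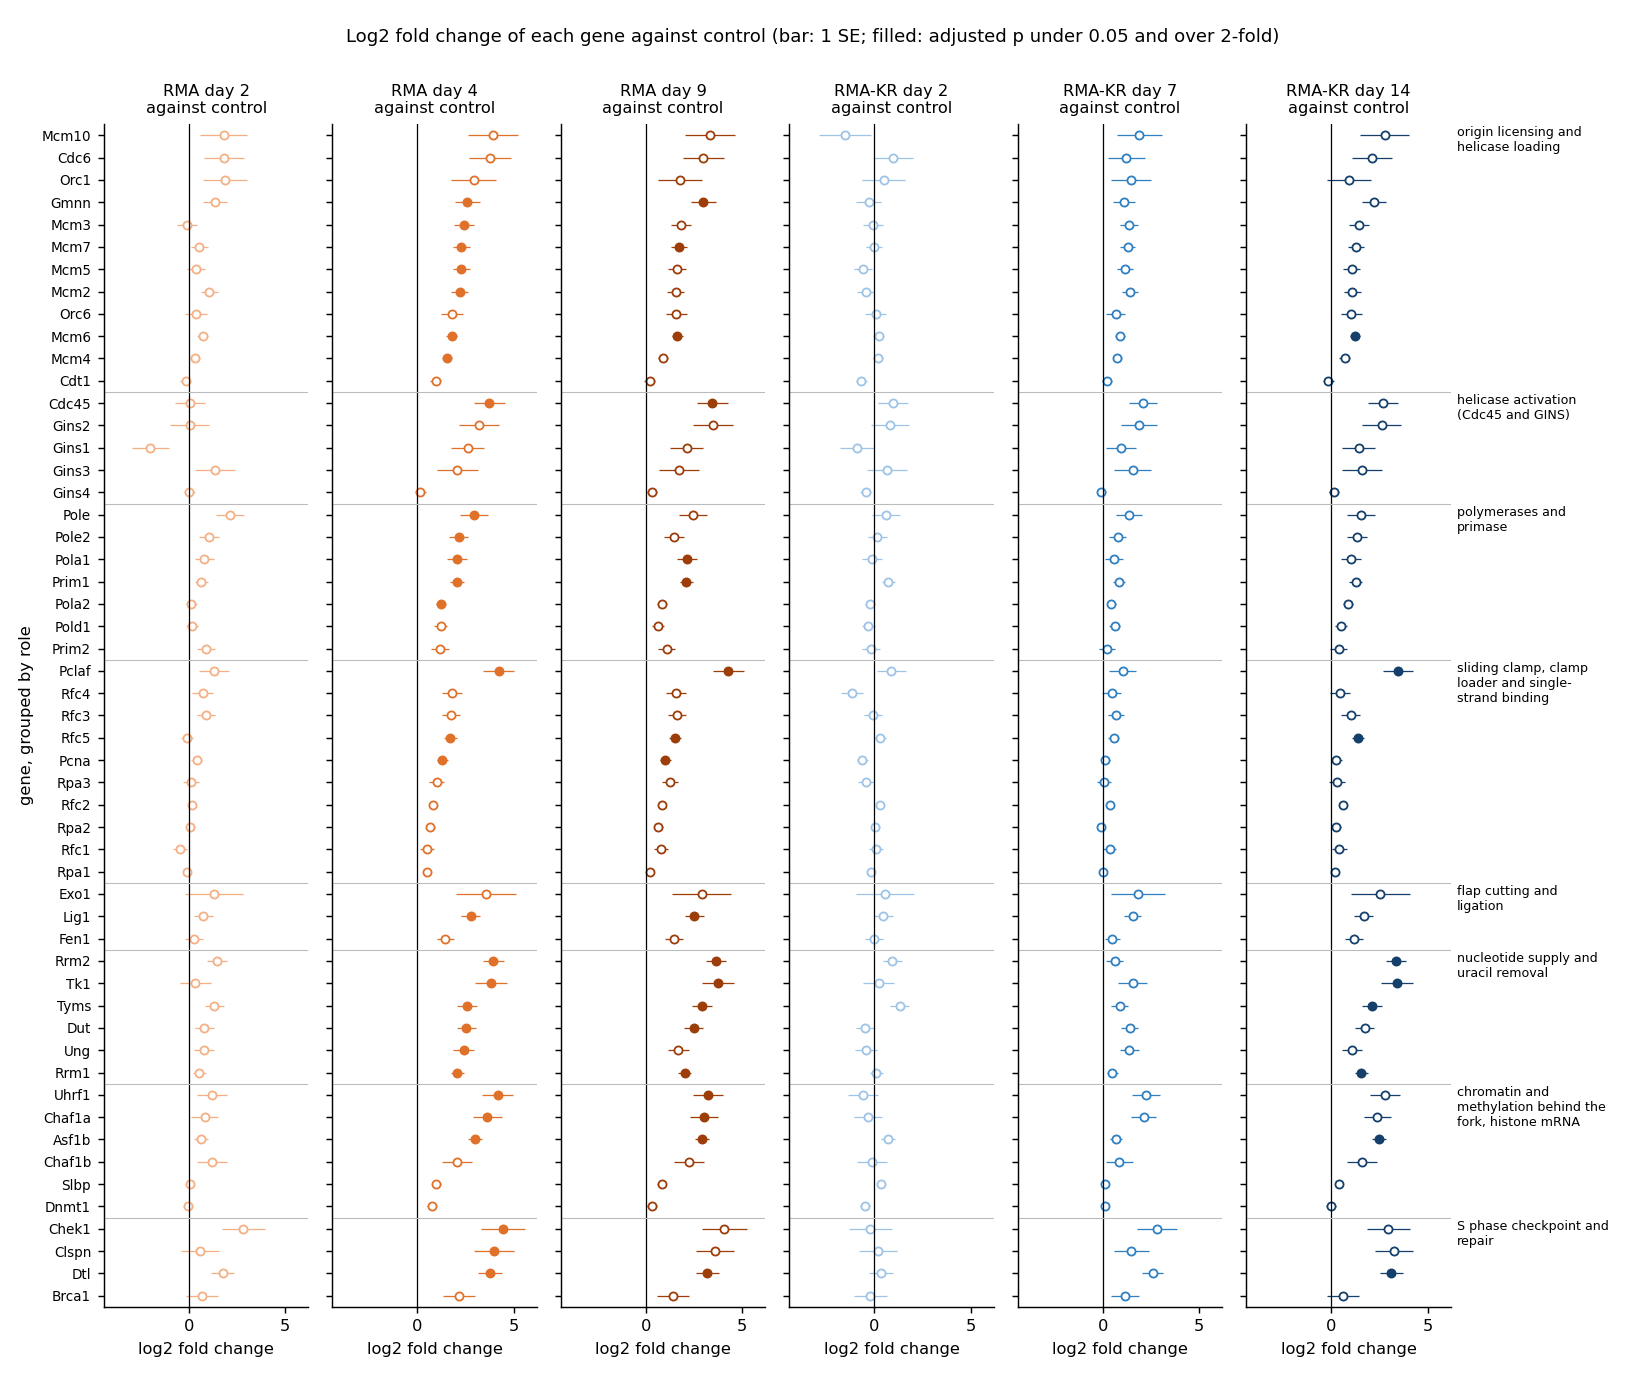
Log2 fold change against control of each of the 53 genes, in the order of their roles, for the 6 tumor groups, with bars of 1 SE and filled points for called genes. All 53 points lie above 0 at RMA day 4 and at RMA day 9, and 51 do at RMA-KR day 14.

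The lines were then compared at matched stage. RMA day 4 exceeded RMA-KR day 7 in 5 called genes, Rrm2, Asf1b, Rrm1, Pcna and Pclaf, none was lower, and 0.503% of all tested genes were called. The median log2 difference was 1.16 over the 53 genes, 1.82 without the 4 libraries low in immediate early genes, and -0.23 over all tested genes. Rrm2 and Asf1b had the smallest adjusted p, with log2 differences of 3.31 ± 0.48 and 2.31 ± 0.34 (edgeR quasi-likelihood, adjusted p = 0.00082 and 0.000903), and both were called with each of the 8 libraries left out. For Rrm1 and Pcna the differences were 1.56 ± 0.31 and 1.16 ± 0.26 (edgeR quasi-likelihood, adjusted p = 0.0167 and 0.0357), and for Pclaf 3.18 ± 0.71 (adjusted p = 0.0357). The count was 2 without RMA day 4 libraries 2 or 3 or RMA-KR day 7 libraries 1, 2 or 4 and 3 without RMA day 4 library 1 or RMA-KR day 7 library 5, 7 without the 4 libraries low in immediate early genes, 2 with a term for them, 2 with the replicate block, 22 with no filter on low counts and 8 by DESeq2. Rrm1 lost its call without RMA day 4 libraries 2 or 3 or RMA-KR day 7 libraries 1, 2 or 4 (highest adjusted p 0.0948), Pcna without RMA day 4 libraries 1, 2 or 3 or RMA-KR day 7 libraries 1, 2, 4 or 5 (highest adjusted p 0.136) and Pclaf without any 1 of the 8 libraries compared (highest adjusted p 0.129).

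At the late stage no member was called between RMA day 9 and RMA-KR day 14 by edgeR's quasi-likelihood test or by DESeq2 (0% of tested genes were called, and 3 members had an unadjusted p under 0.05). The median log2 difference of 0.45 ranged from 0.21 (without RMA day 9 library 2) to 0.82 (without RMA-KR day 14 library 2) with 1 library left out. On day 2 no member was called between the lines by edgeR (0.304% of tested genes were called, 10 members had an unadjusted p under 0.05, and DESeq2 called 2), and the edgeR count was 1 without RMA day 2 library 3 and 6 with no filter on low counts. The change from day 2 to the late stage was tested between RMA and RMA-KR directly, and no member passed by edgeR or by DESeq2 (0% of tested genes were called, and 1 member had an unadjusted p under 0.05). Its count was 1 without RMA day 2 library 3.

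Within the course of RMA, 12 genes rose from day 2 to day 4 and none fell, against 1.73% of all tested genes. They were Asf1b, Rfc5, Rrm2, Mcm3, Gins1, Rrm1, Mcm4, Cdc45, Mcm5, Pola2, Tk1 and Prim1, and the median log2 change was 1.26 over the 53 genes and -0.11 over all tested genes. Asf1b changed by 2.38 ± 0.40 and was called with each library left out, and Rfc5 by 1.81 ± 0.35 (edgeR quasi-likelihood, adjusted p = 0.00371 and 0.00881). Rfc5 lost its call without RMA day 2 library 1 (highest adjusted p 0.0504). Gins1, a GINS subunit, had the widest fitted change, 4.61 ± 1.07 (adjusted p = 0.0242 by the same edgeR test), and lost its call without RMA day 2 libraries 1 or 2 or RMA day 4 libraries 1, 2 or 3 (highest adjusted p 0.116). It was at 0.801, 0 and 1.59 CPM at RMA day 2, so the size and rank of its change are poorly known. Rrm2 changed by 2.48 ± 0.56 and Mcm3 by 2.53 ± 0.58 (edgeR quasi-likelihood, adjusted p = 0.0204 and 0.0238). Rrm2 lost its call without RMA day 2 library 1 or RMA day 4 libraries 2 or 3 (highest adjusted p 0.0841), and Mcm3 without RMA day 2 library 2 or RMA day 4 libraries 2 or 3 (highest adjusted p 0.0849). The count depended on single libraries, being 2 without RMA day 2 library 1 or RMA day 4 libraries 2 or 3, 5 without RMA day 4 library 1 and 6 without RMA day 2 library 2. It was 3 in a fit of only the 6 libraries compared, 27 with no filter on low counts and 22 by DESeq2. Of the 12, Asf1b and Rfc5 were called in all of the other settings with all libraries. From day 4 to day 9 no member was called by edgeR's quasi-likelihood test or by DESeq2 (0% of tested genes were called, and 2 members had an unadjusted p under 0.05), with a median of -0.27.

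Within the course of RMA-KR, no member was called from day 2 to day 7 by edgeR (0.462% of tested genes were called, 21 members had an unadjusted p under 0.05, and DESeq2 called 8). The edgeR count was 3 without RMA-KR day 7 library 1 and 5 without RMA-KR day 7 library 2, 11 with no filter on low counts, and 6 of the 39 members left when a gene needed 10 counts in every library. From day 7 to day 14, Rrm2 and Asf1b rose, against 0.298% of all tested genes, by log2 changes of 2.71 ± 0.47 and 1.81 ± 0.33 (edgeR quasi-likelihood, adjusted p = 0.0082 and 0.0127). Without the 4 libraries low in immediate early genes the count was 0, with the replicate block 0, with no filter on low counts 5, and 1 without RMA-KR day 7 library 4 or RMA-KR day 14 library 2, where Asf1b was the gene lost (highest adjusted p 0.0712). The median over the 53 genes was 0.32 with all libraries and 1.05 without those 4.

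The promoters of the members were read for the letters that E2F factors and the CCAAT-binding factor NF-Y are known to bind. RefSeq promoters of 300 bases (250 before and 50 after the transcription start, build GRCm38.p6) were at hand for 44 of the 53 members. Gins1, Gins2, Gins4, Pole, Prim2, Mcm4, Exo1, Gmnn and Rfc2 had none in the table. The E2F letters TTTCCCGC, TTTCGCGC, TTTGCCGC or TTTGGCGC, on either strand, were in 18 of the 44 members (40.9%) and in 2.6% of the 27025 genes with a promoter. CCAAT, on either strand, was in 29 of the 44 (65.9%) and in 41.1% of those genes. Of the 26 members with a promoter that were called at RMA day 4, 11 held the E2F letters and 17 held CCAAT, and of the 18 not called, 7 and 12 did. The letters were therefore about as frequent in members that passed as in those that did not. Most members are known E2F targets, so a share above that of all genes comes with the choice of the list and is no result about the rise. The genes compared were not matched for base content. The 10 stretches of 30 bases below are from described members, shown 5′ to 3′ on the strand of the gene, with the matched letters in capitals: E2F letters in the first 8, and CCAAT in Rrm2 and Asf1b, whose promoters held no E2F letters in this window. In Pold1, Lig1, Pclaf, Mcm3 and Asf1b the capitals are the reverse complement of the letters searched. The stretches lie at chr1:20820275-20820304 (Mcm3, minus strand), chr1:128359734-128359763 (Mcm6, minus strand), chr8:122568035-122568064 (Cdt1, plus strand), chr7:44548766-44548795 (Pold1, minus strand), chr7:13278841-13278870 (Lig1, plus strand), chr9:65890307-65890336 (Pclaf, plus strand), chr1:191575534-191575563 (Dtl, minus strand), chr9:20952574-20952603 (Dnmt1, minus strand), chr12:24708192-24708221 (Rrm2, plus strand) and chr8:83955643-83955672 (Asf1b, plus strand). Lig1 and Dnmt1 have 3 promoters each. Their stretches lie in the promoters at chr7:13278576-13278875 and chr9:20952574-20952873, both inside the gene by the positions given below. The Dnmt1 promoter at chr9:20959839-20960138, where the gene begins, held CCAAT and no E2F letters. A match describes the sequence and is not evidence of binding.
Mcm3: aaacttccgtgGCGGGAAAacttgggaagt
Mcm6: gattggacgggTTTGGCGCgaagtagctca
Cdt1: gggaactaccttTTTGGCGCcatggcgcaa
Pold1: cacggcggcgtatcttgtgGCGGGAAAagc
Lig1: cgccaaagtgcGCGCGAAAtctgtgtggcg
Pclaf: gcttggagcgcGCGGGAAAgagacccattt
Dtl: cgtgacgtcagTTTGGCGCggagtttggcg
Dnmt1: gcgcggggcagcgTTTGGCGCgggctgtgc
Rrm2: ggtcagcggcgtCCAATgggaggcgaggcc
Asf1b: tccttagcggcgATTGGctggaaggcggag

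Origin licensing and helicase loading are served by 12 of the genes. Of the 12, 7 rose at RMA day 4, 3 at RMA day 9 and 1 at RMA-KR day 14. Mcm4 (ENSMUSG00000022673, chr16:15623897-15637400), a subunit of the MCM helicase, had the highest level per kilobase of the 12, and positions here and below are in build mm10. Levels per kilobase here and below rest on the median length of a gene's transcripts, so the order within a role can follow that length. By mean CPM over the 24 libraries, Mcm6 (589) was above Mcm4 (346). Mcm4 measured 219, 217, 221 and 198 CPM in control and 155, 353 and 300 at RMA day 2. Mcm4 reached 548, 762 and 536 CPM at RMA day 4 and 413, 540 and 249 at RMA day 9. In RMA-KR Mcm4 stood at 249, 217 and 264 CPM on day 2, 239, 285, 516, 394 and 388 on day 7 and 272, 422 and 350 on day 14. Every RMA day 4, RMA day 9, RMA-KR day 7 and RMA-KR day 14 library lay above the control libraries for Mcm4, and RMA day 2 overlapped them. Mcm4 had log2 fold changes against control of 1.53 ± 0.27 (SE) at RMA day 4, 0.91 ± 0.27 at RMA day 9 and 0.70 ± 0.27 at RMA-KR day 14, called at RMA day 4 (edgeR quasi-likelihood, adjusted p = 0.00269, 0.0731 and 0.269). Mcm6 (ENSMUSG00000026355, chr1:128331590-128359664), another helicase subunit, is the licensing gene that was called in all 3 of these comparisons. Mcm6 measured 292, 344, 286 and 243 CPM in control and 437, 498 and 506 at RMA day 2. Mcm6 reached 757, 1250 and 1000 CPM at RMA day 4 and 993, 1110 and 603 at RMA day 9. In RMA-KR Mcm6 stood at 415, 271 and 337 CPM on day 2, 474, 483, 785, 286 and 714 on day 7 and 734, 899 and 429 on day 14. RMA day 2, RMA day 4 and both late groups lay above control for Mcm6, while RMA-KR day 7 overlapped it through its library 4. Mcm6 had log2 fold changes against control of 1.78 ± 0.28 (SE) at RMA day 4, 1.63 ± 0.28 at RMA day 9 and 1.24 ± 0.28 at RMA-KR day 14, all 3 called (edgeR quasi-likelihood, adjusted p = 0.00109, 0.00193 and 0.0263). Mcm6 lost its call at RMA-KR day 14 without control libraries 1, 2, 3 or 4 or RMA-KR day 14 libraries 1 or 2 (highest adjusted p 0.128), with the replicate block (log2 fold change 1.06, adjusted p 0.101) and in a fit of only the libraries compared (log2 fold change 1.25, adjusted p 0.0514).

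Mcm3 (ENSMUSG00000041859, chr1:20802968-20820312) encodes a further helicase subunit, and it was low in RMA day 2 library 1. Mcm3 measured 130, 165, 127 and 143 CPM in control and 13.2, 162 and 222 at RMA day 2. Mcm3 reached 569, 1030 and 687 CPM at RMA day 4 and 549, 665 and 300 at RMA day 9. In RMA-KR Mcm3 stood at 124, 108 and 173 CPM on day 2, 208, 236, 589, 328 and 456 on day 7 and 246, 574 and 330 on day 14. Apart from RMA day 2 and RMA-KR day 2, every group lay wholly above control for Mcm3. Mcm3 had log2 fold changes against control of 2.43 ± 0.52 (SE) at RMA day 4, 1.84 ± 0.52 at RMA day 9 and 1.44 ± 0.51 at RMA-KR day 14, called at RMA day 4 (edgeR quasi-likelihood, adjusted p = 0.0112, 0.0583 and 0.228). Mcm3 lost its call at RMA day 4 without control libraries 1 or 3 or RMA day 4 library 2 (highest adjusted p 0.0542). Cdt1 (ENSMUSG00000006585, chr8:122568015-122573554), the loading factor that is destroyed in S phase, had fold changes among the 3 lowest of the 53 in both late groups and was lower than control at RMA-KR day 14. Cdt1 measured 70, 45.3, 78.5 and 77 CPM in control and 54.2, 66 and 62 at RMA day 2. Cdt1 reached 113, 167 and 116 CPM at RMA day 4 and 62.2, 93.4 and 78.4 at RMA day 9. In RMA-KR Cdt1 stood at 61.9, 32.5 and 34.1 CPM on day 2, 52.2, 111, 105, 69.5 and 59.6 on day 7 and 53.5, 68.4 and 62.2 on day 14. Cdt1 lay above control in the RMA day 4 libraries and overlapped control in both late groups. Cdt1 had log2 fold changes against control of 0.96 ± 0.28 (SE) at RMA day 4, 0.20 ± 0.28 at RMA day 9 and -0.14 ± 0.28 at RMA-KR day 14, none called (edgeR quasi-likelihood, adjusted p = 0.0746, 0.842 and 0.881). The other licensing genes ranged over the 24 libraries, in CPM, as follows: Mcm2 63.2 to 799, Mcm5 88.7 to 1090, Mcm7 44.4 to 486, Gmnn 3.68 to 140, Mcm10 0 to 94.9, Cdc6 0 to 123, Orc1 0.193 to 24.1 and Orc6 2 to 90.7. By edgeR's quasi-likelihood test Mcm2 and Mcm5 were called at RMA day 4, and Mcm7 and Gmnn, the inhibitor of Cdt1, at RMA day 4 and day 9. By that test Mcm10, Cdc6, Orc1 and Orc6 were called in none of the comparisons with control. In edgeR Mcm7 lost its RMA day 9 call without control libraries 1, 2, 3 or 4 or RMA day 9 libraries 1 or 2 (highest adjusted p 0.193). Gmnn lost its call at RMA day 4 without control libraries 1, 2, 3 or 4 or RMA day 4 libraries 2 or 3 (highest adjusted p 0.109) and at RMA day 9 without control library 1 or RMA day 9 library 2 (highest adjusted p 0.0612).

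Helicase activation is represented by Cdc45 and the GINS subunits Gins1, Gins2, Gins3 and Gins4. Cdc45 rose at RMA day 4 and day 9, by log2 fold changes of 3.74 ± 0.81 and 3.46 ± 0.80 (edgeR quasi-likelihood, adjusted p = 0.0117 and 0.0175). By the same edgeR test the 4 GINS genes were called in no comparison with control. Cdc45 lost its call at RMA day 4 without control libraries 2, 3 or 4 (highest adjusted p 0.0627) and at RMA day 9 without control libraries 2, 3 or 4 or RMA day 9 libraries 1 or 2 (highest adjusted p 0.0801). Gins4 (ENSMUSG00000031546, chr8:23226616-23237659) had the highest level per kilobase in this role and the lowest fold change of the 53 genes at RMA day 4. Gins4 measured 75.6, 81.6, 98.1 and 76.2 CPM in control and 96.3, 89.8 and 68.5 at RMA day 2. Gins4 reached 79.7, 92.3 and 105 CPM at RMA day 4 and 125, 119 and 68.7 at RMA day 9. In RMA-KR Gins4 stood at 34.5, 67.8 and 82.2 CPM on day 2, 90.5, 68.6, 108, 64.3 and 66.2 on day 7 and 60, 98.7 and 117 on day 14. No tumor group was separated from control for Gins4. Gins4 had log2 fold changes against control of 0.16 ± 0.28 (SE) at RMA day 4, 0.33 ± 0.28 at RMA day 9 and 0.15 ± 0.28 at RMA-KR day 14, none called (edgeR quasi-likelihood, adjusted p = 0.842, 0.675 and 0.868). Gins1 (ENSMUSG00000027454, chr2:150905400-150931280) was near the limit of detection in several libraries. Gins1 measured 6.28, 1.45, 2.95 and 2.14 CPM in control and 0.801, 0 and 1.59 at RMA day 2. Gins1 reached 23.4, 21 and 14.1 CPM at RMA day 4 and 8.86, 21.7 and 11.3 at RMA day 9. In RMA-KR Gins1 stood at 0.835, 2.99 and 1.37 CPM on day 2, 3.05, 1.53, 12.3, 8.98 and 4.81 on day 7 and 8.81, 11.9 and 5.01 on day 14. RMA day 4 lay above every control and RMA day 2 library for Gins1, as did RMA day 9 and, against control, RMA-KR day 14 except for its library 3. Gins1 had log2 fold changes against control of 2.61 ± 0.87 (SE) at RMA day 4, 2.13 ± 0.86 at RMA day 9 and 1.43 ± 0.86 at RMA-KR day 14, none called (edgeR quasi-likelihood, adjusted p = 0.141, 0.254 and 0.436). The remaining members of this role ranged, in CPM, as follows: Cdc45 0 to 228, Gins2 0 to 46.2 and Gins3 0.153 to 39.8.

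Polymerases and primase make up 7 members, of which 5 rose at RMA day 4 and 2 at RMA day 9. Pold1 (ENSMUSG00000038644, chr7:44532746-44548849), the catalytic subunit of polymerase delta, had the highest level per kilobase of them. Pold1 measured 94.3, 144, 124 and 145 CPM in control and 77.3, 200 and 149 at RMA day 2. Pold1 reached 224, 389 and 270 CPM at RMA day 4 and 179, 213 and 201 at RMA day 9. In RMA-KR Pold1 stood at 142, 52.1 and 113 CPM on day 2, 143, 158, 277, 190 and 208 on day 7 and 148, 274 and 121 on day 14. The RMA day 4 and RMA day 9 libraries were all above control for Pold1, and those of RMA-KR day 14 were not. Pold1 had log2 fold changes against control of 1.21 ± 0.33 (SE) at RMA day 4, 0.64 ± 0.33 at RMA day 9 and 0.51 ± 0.33 at RMA-KR day 14, none called (edgeR quasi-likelihood, adjusted p = 0.0527, 0.39 and 0.476). Prim1, the catalytic primase subunit, rose at RMA day 4 and day 9 by 2.06 ± 0.35 and 2.11 ± 0.35 (log2; edgeR quasi-likelihood, adjusted p = 0.00203 and 0.00149), and no single library ended either call. Pola1, the catalytic subunit of polymerase alpha, rose by 2.06 ± 0.51 and 2.14 ± 0.51 in the same comparisons (edgeR quasi-likelihood, adjusted p = 0.027 and 0.0201), and lost the first call without control libraries 1, 2, 3 or 4 or RMA day 4 libraries 2 or 3 (highest adjusted p 0.11) and the second without control libraries 1, 2, 3 or 4 or RMA day 9 libraries 1 or 2 (highest adjusted p 0.0821). Pola2, Pole and Pole2 were called at RMA day 4 alone, and lost that edgeR call as follows: Pola2 without control library 3 or RMA day 4 library 2 (highest adjusted p 0.0593), Pole without control libraries 1, 2, 3 or 4 or RMA day 4 libraries 2 or 3 (highest adjusted p 0.117) and Pole2 without control libraries 1 or 4 or RMA day 4 libraries 2 or 3 (highest adjusted p 0.111). Prim2 was not called in any comparison with control by edgeR's quasi-likelihood test. Their ranges over the 24 libraries, in CPM, were Prim1 28.1 to 232, Prim2 14.1 to 91.1, Pola1 5.41 to 139, Pola2 60.7 to 237, Pole 7.2 to 138 and Pole2 3.57 to 48.6.

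The sliding clamp, the clamp loader and the single-strand binding proteins count 10 members, of which Pcna, Pclaf and Rfc5 rose at RMA day 4 and day 9, and Pclaf and Rfc5 at RMA-KR day 14. Pclaf (ENSMUSG00000040204, chr9:65890237-65903266), a small protein that binds PCNA, had the highest fold change of the 53 genes in both late groups. Pclaf measured 8.69, 5.21, 7.48 and 4.73 CPM in control and 0, 23.6 and 24.1 at RMA day 2. Pclaf reached 107, 132 and 124 CPM at RMA day 4 and 123, 183 and 72.2 at RMA day 9. In RMA-KR Pclaf stood at 3.62, 15.7 and 16.7 CPM on day 2, 6.45, 8.46, 22.8, 12.1 and 17.3 on day 7 and 54.7, 123 and 37 on day 14. From the control libraries, all under 9 CPM, Pclaf was separated at RMA day 4, RMA day 9 and RMA-KR day 14, and RMA day 2 library 1 had no count of it, which allows up to 0.4 CPM. Pclaf had log2 fold changes against control of 4.22 ± 0.81 (SE) at RMA day 4, 4.28 ± 0.81 at RMA day 9 and 3.46 ± 0.79 at RMA-KR day 14, all 3 called (edgeR quasi-likelihood, adjusted p = 0.00529, 0.00401 and 0.0266). Pclaf lost its call at RMA-KR day 14 without control libraries 1, 2, 3 or 4 or RMA-KR day 14 library 2 (highest adjusted p 0.11), with the replicate block (log2 fold change 3.30, adjusted p 0.0892) and without the 4 libraries low in immediate early genes (log2 fold change 3.37, adjusted p 0.106). Pcna (ENSMUSG00000027342, chr2:132249162-132253314), the clamp itself, had the smallest fold changes of the 3 called genes. Pcna measured 98.9, 101, 157 and 84.8 CPM in control and 109, 175 and 155 at RMA day 2. Pcna reached 268, 287 and 256 CPM at RMA day 4 and 222, 286 and 163 at RMA day 9. In RMA-KR Pcna stood at 82.2, 72.9 and 62.4 CPM on day 2, 101, 93.3, 191, 98 and 123 on day 7 and 95.3, 198 and 110 on day 14. All RMA day 4 and RMA day 9 libraries were above control for Pcna, and all RMA-KR day 2 libraries below it. Pcna had log2 fold changes against control of 1.29 ± 0.28 (SE) at RMA day 4, 1.02 ± 0.28 at RMA day 9 and 0.28 ± 0.28 at RMA-KR day 14, called at RMA day 4 and RMA day 9 (edgeR quasi-likelihood, adjusted p = 0.0106, 0.0473 and 0.686). Pcna lost its call at RMA day 4 without control libraries 1 or 4 (highest adjusted p 0.0614). The Pcna call at RMA day 9 ended without control libraries 1, 2 or 4 or RMA day 9 libraries 1 or 2 (highest adjusted p 0.345), ended with the 10-count filter (log2 fold change 1.00, adjusted p 0.0221), with the replicate block (log2 fold change 0.93, adjusted p 0.13), without the 4 libraries low in immediate early genes (log2 fold change 0.92, adjusted p 0.104) and in DESeq2 with the beta prior (log2 fold change 0.95, adjusted p 0.014).

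Rfc5 (ENSMUSG00000029363, chr5:117378103-117389047), a subunit of the clamp loader, varied little among the control libraries. Rfc5 measured 51.2, 48.4, 49.3 and 45.3 CPM in control and 47.4, 35 and 54.3 at RMA day 2. Rfc5 reached 139, 185 and 154 CPM at RMA day 4 and 150, 197 and 71.7 at RMA day 9. In RMA-KR Rfc5 stood at 29.7, 95.5 and 51.7 CPM on day 2, 56.6, 59, 84.1, 78.2 and 82.1 on day 7 and 98.6, 132 and 151 on day 14. Control libraries stayed between 45.3 and 51.2 CPM for Rfc5, and RMA day 4, RMA day 9, RMA-KR day 7 and RMA-KR day 14 lay above them. Rfc5 had log2 fold changes against control of 1.72 ± 0.32 (SE) at RMA day 4, 1.52 ± 0.31 at RMA day 9 and 1.39 ± 0.31 at RMA-KR day 14, all 3 called (edgeR quasi-likelihood, adjusted p = 0.00391, 0.00726 and 0.0255). Rfc5 lost its call at RMA day 9 without RMA day 9 library 2 (highest adjusted p 0.0913). The Rfc5 call at RMA-KR day 14 ended without control libraries 1, 2, 3 or 4 or RMA-KR day 14 libraries 2 or 3 (highest adjusted p 0.0889), ended with the replicate block (log2 fold change 1.39, adjusted p 0.066) and without the 4 libraries low in immediate early genes (log2 fold change 1.40, adjusted p 0.0855). Rfc2 (ENSMUSG00000023104, chr5:134581366-134601805), another loader subunit, had the highest level per kilobase in this role. Rfc2 measured 145, 197, 165 and 173 CPM in control and 152, 228 and 199 at RMA day 2. Rfc2 reached 274, 332 and 282 CPM at RMA day 4 and 362, 318 and 223 at RMA day 9. In RMA-KR Rfc2 stood at 228, 198 and 202 CPM on day 2, 216, 225, 215, 185 and 257 on day 7 and 269, 307 and 212 on day 14. Rfc2 was above control in all libraries of RMA-KR day 2, RMA day 4, RMA day 9 and RMA-KR day 14, by small steps. Rfc2 had log2 fold changes against control of 0.80 ± 0.18 (SE) at RMA day 4, 0.82 ± 0.18 at RMA day 9 and 0.62 ± 0.18 at RMA-KR day 14, none called (edgeR quasi-likelihood, adjusted p = 0.0136, 0.0101 and 0.094).

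Rpa1 (ENSMUSG00000000751, chr11:75298166-75348324), the large subunit of the single-strand binding protein, was among the 3 members with the lowest fold change at RMA day 9. Rpa1 measured 382, 406, 426 and 310 CPM in control and 355, 350 and 382 at RMA day 2. Rpa1 reached 487, 572 and 572 CPM at RMA day 4 and 441, 481 and 423 at RMA day 9. In RMA-KR Rpa1 stood at 295, 383 and 351 CPM on day 2, 360, 539, 383, 342 and 315 on day 7 and 388, 565 and 379 on day 14. Rpa1 lay above control at RMA day 4 and at no other time without overlap. Rpa1 had log2 fold changes against control of 0.51 ± 0.17 (SE) at RMA day 4, 0.23 ± 0.17 at RMA day 9 and 0.22 ± 0.17 at RMA-KR day 14, none called (edgeR quasi-likelihood, adjusted p = 0.145, 0.604 and 0.583). The other members of this role were not called in any comparison with control by edgeR's quasi-likelihood test. They ranged, in CPM, as follows: Rfc1 21.1 to 111, Rfc3 4.43 to 102, Rfc4 3.29 to 89.9, Rpa2 93.8 to 247 and Rpa3 9.06 to 47.7.

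Among the enzymes that finish the lagging strand, the ligase Lig1 rose at RMA day 4 and day 9. The nucleases Fen1 and Exo1 were not called in any comparison with control by edgeR's quasi-likelihood test. Lig1 (ENSMUSG00000056394, chr7:13277283-13311433) had the highest level per kilobase of the 3. Lig1 measured 42.7, 19.2, 25 and 19.6 CPM in control and 14.8, 64.2 and 55.5 at RMA day 2. Lig1 reached 137, 231 and 172 CPM at RMA day 4 and 182, 208 and 65.5 at RMA day 9. In RMA-KR Lig1 stood at 50, 34.9 and 24.9 CPM on day 2, 40.9, 39.8, 135, 58.5 and 114 on day 7 and 85.2, 121 and 51 on day 14. The libraries of RMA day 4, RMA day 9 and RMA-KR day 14 were above all control libraries for Lig1, where control library 1 was the highest. Lig1 had log2 fold changes against control of 2.76 ± 0.50 (SE) at RMA day 4, 2.52 ± 0.50 at RMA day 9 and 1.69 ± 0.49 at RMA-KR day 14, called at RMA day 4 and RMA day 9 (edgeR quasi-likelihood, adjusted p = 0.00376, 0.00597 and 0.107). Fen1 ranged over 4.54 to 28.7 CPM and Exo1 over 0 to 60 CPM, and Exo1 was at or under 3 counts in 5 libraries.

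Nucleotide supply and uracil removal hold 6 members, and this was the role with the largest share of calls: all 6 at RMA day 4, 5 at RMA day 9 and 4 at RMA-KR day 14. Rrm1 (ENSMUSG00000030978, chr7:102441695-102469771), the large subunit of ribonucleotide reductase, had the highest level per kilobase. Rrm1 measured 137, 146, 146 and 94.3 CPM in control and 98.3, 290 and 184 at RMA day 2. Rrm1 reached 403, 664 and 578 CPM at RMA day 4 and 599, 681 and 302 at RMA day 9. In RMA-KR Rrm1 stood at 135, 180 and 112 CPM on day 2, 142, 145, 284, 170 and 190 on day 7 and 292, 566 and 302 on day 14. Rrm1 was above control at RMA day 4, RMA day 9 and RMA-KR day 14 in every library, and overlapped it at RMA-KR day 7. Rrm1 had log2 fold changes against control of 2.07 ± 0.33 (SE) at RMA day 4, 2.01 ± 0.33 at RMA day 9 and 1.56 ± 0.33 at RMA-KR day 14, all 3 called (edgeR quasi-likelihood, adjusted p = 0.00132, 0.00149 and 0.0162). Rrm1 lost its call at RMA-KR day 14 without control libraries 2 or 4 or RMA-KR day 14 library 2 (highest adjusted p 0.103) and without the 4 libraries low in immediate early genes (log2 fold change 1.47, adjusted p 0.0562). Rrm2 (ENSMUSG00000020649, chr12:24708241-24714146), the small subunit of the same enzyme, is made in S phase. Rrm2 measured 49.9, 12.2, 22.4 and 9.29 CPM in control and 12.8, 94.7 and 83.5 at RMA day 2. Rrm2 reached 298, 444 and 327 CPM at RMA day 4 and 324, 378 and 167 at RMA day 9. In RMA-KR Rrm2 stood at 43.6, 49.9 and 39.3 CPM on day 2, 30.5, 35.6, 47.7, 27.2 and 38.2 on day 7 and 185, 344 and 173 on day 14. The lowest late library, RMA day 9 library 3 at 167 CPM, was above the highest library of control, RMA-KR day 2 and RMA-KR day 7 for Rrm2, and the RMA-KR day 7 libraries lay inside the control range. Rrm2 had log2 fold changes against control of 3.94 ± 0.53 (SE) at RMA day 4, 3.65 ± 0.53 at RMA day 9 and 3.34 ± 0.52 at RMA-KR day 14, all 3 called (edgeR quasi-likelihood, adjusted p = 0.000221, 0.000442 and 0.00156).

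Tk1 (ENSMUSG00000025574, chr11:117815526-117826092), the thymidine kinase of the salvage pathway, was at 12.6 CPM in control library 1 and under 5 CPM in the other 3 control libraries. Tk1 measured 12.6, 3.38, 4.21 and 2.32 CPM in control and 0, 9.79 and 11 at RMA day 2. Tk1 reached 66, 93.9 and 73.2 CPM at RMA day 4 and 71.8, 109 and 43.9 at RMA day 9. In RMA-KR Tk1 stood at 2.23, 3.83 and 13.4 CPM on day 2, 13, 6.57, 32.3, 8.42 and 21 on day 7 and 50.3, 78.9 and 46 on day 14. For Tk1 the RMA day 4, RMA day 9 and RMA-KR day 14 libraries were all above control, RMA-KR day 7 overlapped it, and the 0 in RMA day 2 library 1 allows up to 0.4 CPM. Tk1 had log2 fold changes against control of 3.82 ± 0.84 (SE) at RMA day 4, 3.76 ± 0.84 at RMA day 9 and 3.41 ± 0.83 at RMA-KR day 14, all 3 called (edgeR quasi-likelihood, adjusted p = 0.0136, 0.0135 and 0.0423). Tk1 lost its call at RMA day 4 without control libraries 2, 3 or 4 (highest adjusted p 0.072). The Tk1 call at RMA day 9 ended without control libraries 2, 3 or 4 or RMA day 9 library 2 (highest adjusted p 0.0747), ended with the replicate block (log2 fold change 3.50, adjusted p 0.0557) and without the 4 libraries low in immediate early genes (log2 fold change 3.49, adjusted p 0.065). The Tk1 call at RMA-KR day 14 ended without control libraries 2, 3 or 4 or RMA-KR day 14 libraries 1 or 2 (highest adjusted p 0.165), ended with the replicate block (log2 fold change 3.11, adjusted p 0.154) and without the 4 libraries low in immediate early genes (log2 fold change 3.17, adjusted p 0.135). Tyms, thymidylate synthase, was called in all 3 comparisons, with log2 fold changes of 2.57 ± 0.52, 2.92 ± 0.53 and 2.13 ± 0.51 (edgeR quasi-likelihood, adjusted p = 0.00765, 0.00257 and 0.0401). Tyms lost its call at RMA-KR day 14 without control libraries 1, 2, 3 or 4 or RMA-KR day 14 libraries 1 or 2 (highest adjusted p 0.296). Dut, which breaks down dUTP, was called at RMA day 4 and day 9, and lost the second call without RMA day 9 library 2 (edgeR adjusted p 0.0541). Ung, which removes uracil from DNA, was called by edgeR at RMA day 4 alone and lost that call without control libraries 1 or 4 or RMA day 4 libraries 2 or 3 (highest adjusted p 0.0941). Their ranges over the 24 libraries, in CPM, were Tyms 5.21 to 121, Dut 7.87 to 169 and Ung 3.86 to 66.4.

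Chromatin, methylation and histone mRNA behind the fork have 6 members, and Asf1b, Uhrf1 and Chaf1a rose at RMA day 4 and day 9. Asf1b (ENSMUSG00000005470, chr8:83955507-83970197), a histone chaperone, had the smallest adjusted p of the 53 genes at RMA day 4, RMA day 9 and RMA-KR day 14. Asf1b measured 25.1, 62.4, 40.9 and 25 CPM in control and 44.6, 52 and 81 at RMA day 2. Asf1b reached 268, 369 and 284 CPM at RMA day 4 and 339, 366 and 157 at RMA day 9. In RMA-KR Asf1b stood at 56.1, 48.3 and 84.8 CPM on day 2, 44.1, 59.2, 82, 42.1 and 82.7 on day 7 and 186, 322 and 143 on day 14. The lowest Asf1b value of these 3 groups, 143 CPM, was above every library of control, of day 2 in either line and of RMA-KR day 7. Asf1b had log2 fold changes against control of 3.00 ± 0.37 (SE) at RMA day 4, 2.90 ± 0.37 at RMA day 9 and 2.5 ± 0.36 at RMA-KR day 14, all 3 called (edgeR quasi-likelihood, adjusted p = 0.000145, 0.000193 and 0.00104). Slbp (ENSMUSG00000004642, chr5:33634952-33652574), which binds the stem-loop of histone mRNAs, had the highest level per kilobase in this role. Slbp measured 196, 189, 190 and 140 CPM in control and 196, 172 and 183 at RMA day 2. Slbp reached 330, 388 and 342 CPM at RMA day 4 and 346, 379 and 225 at RMA day 9. In RMA-KR Slbp stood at 221, 246 and 213 CPM on day 2, 215, 243, 222, 141 and 150 on day 7 and 211, 332 and 167 on day 14. RMA-KR day 2, RMA day 4 and RMA day 9 were above control for Slbp, RMA-KR day 14 overlapped it, and control library 4 was well under the other 3. Slbp had log2 fold changes against control of 0.99 ± 0.22 (SE) at RMA day 4, 0.83 ± 0.22 at RMA day 9 and 0.41 ± 0.22 at RMA-KR day 14, none called (edgeR quasi-likelihood, adjusted p = 0.0146, 0.0412 and 0.382).

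Dnmt1 (ENSMUSG00000004099, chr9:20907209-20959888), the maintenance methyltransferase, was with Cdt1 the member whose fitted level did not exceed control at RMA-KR day 14. Dnmt1 measured 192, 305, 325 and 390 CPM in control and 328, 293 and 275 at RMA day 2. Dnmt1 reached 441, 596 and 520 CPM at RMA day 4 and 353, 408 and 402 at RMA day 9. In RMA-KR Dnmt1 stood at 292, 224 and 141 CPM on day 2, 254, 276, 448, 261 and 403 on day 7 and 210, 431 and 267 on day 14. Dnmt1 lay above control at RMA day 4, and its late groups overlapped control. Dnmt1 had log2 fold changes against control of 0.78 ± 0.26 (SE) at RMA day 4, 0.35 ± 0.26 at RMA day 9 and 0.00 ± 0.26 at RMA-KR day 14, none called (edgeR quasi-likelihood, adjusted p = 0.149, 0.606 and 1). Uhrf1, which guides Dnmt1 to hemimethylated sites, had log2 fold changes of 4.17 ± 0.81 at RMA day 4 and 3.22 ± 0.78 at RMA day 9 (edgeR quasi-likelihood, adjusted p = 0.00573 and 0.0235). Chaf1a, the large subunit of chromatin assembly factor, had 3.63 ± 0.74 and 3.02 ± 0.72 in the same comparisons (edgeR quasi-likelihood, adjusted p = 0.00772 and 0.0212). Its partner Chaf1b was not called against control by the same edgeR test. At RMA day 9 Uhrf1 lost its call without control libraries 2, 3 or 4 or RMA day 9 libraries 1 or 2 (highest adjusted p 0.101), and Chaf1a without control libraries 1, 2, 3 or 4 or RMA day 9 libraries 1 or 2 (highest adjusted p 0.109). Their ranges over the 24 libraries, in CPM, were Uhrf1 3.43 to 373, Chaf1a 1.54 to 129 and Chaf1b 0.133 to 135.

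The S phase checkpoint and repair genes Chek1, Clspn, Dtl and Brca1 were the least abundant role in control NK cells, summing to 24.4, 25.08, 28.86 and 20.98 CPM. Chek1 (ENSMUSG00000032113, chr9:36708482-36727065), the kinase that answers stalled forks, was at or under 3 counts in 3 libraries. Chek1 measured 0.924, 3.47, 2.74 and 2.77 CPM in control and 0, 25.8 and 28 at RMA day 2. Chek1 reached 37.1, 77.8 and 49.7 CPM at RMA day 4 and 42.7, 61.5 and 24 at RMA day 9. In RMA-KR Chek1 stood at 0.0927, 6.28 and 0.0805 CPM on day 2, 7.91, 5.13, 26.5, 21.2 and 27.6 on day 7 and 8.81, 35.5 and 15 on day 14. Chek1 was above control at RMA day 4, RMA day 9, RMA-KR day 7 and RMA-KR day 14, and the control values correspond to few counts. Chek1 had log2 fold changes against control of 4.44 ± 1.16 (SE) at RMA day 4, 4.08 ± 1.15 at RMA day 9 and 2.97 ± 1.11 at RMA-KR day 14, called at RMA day 4 (edgeR quasi-likelihood, adjusted p = 0.0411, 0.0577 and 0.254). Chek1 lost its call at RMA day 4 without any 1 of the 7 libraries compared (highest adjusted p 0.154). Dtl (ENSMUSG00000037474, chr1:191537356-191575544), part of the ubiquitin ligase that removes Cdt1 in S phase, was the member of this role called in all 3 comparisons. Dtl measured 9.43, 6.37, 13.3 and 8.57 CPM in control and 15.7, 40 and 39.9 at RMA day 2. Dtl reached 104, 173 and 111 CPM at RMA day 4 and 79.2, 127 and 52.6 at RMA day 9. In RMA-KR Dtl stood at 9.92, 10.4 and 15.5 CPM on day 2, 17.5, 7.74, 112, 40 and 107 on day 7 and 61.4, 81.2 and 104 on day 14. Dtl was above control in every RMA day 2, RMA day 4, RMA day 9 and RMA-KR day 14 library, and in all RMA-KR day 7 libraries but the second. Dtl had log2 fold changes against control of 3.78 ± 0.62 (SE) at RMA day 4, 3.20 ± 0.61 at RMA day 9 and 3.13 ± 0.61 at RMA-KR day 14, all 3 called (edgeR quasi-likelihood, adjusted p = 0.00163, 0.00436 and 0.0102). Dtl lost its call at RMA-KR day 14 without control library 2 (highest adjusted p 0.052).

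Brca1 (ENSMUSG00000017146, chr11:101488764-101551955), which serves recombination repair, had the highest level per kilobase in this role. This rank follows its median transcript length of 852 bases, against 4221 for Dtl. By mean CPM over the 24 libraries, Brca1 (20.6) was below Dtl (56.1). Brca1 measured 11.1, 9.65, 12.3 and 7.59 CPM in control and 0, 37 and 12.2 at RMA day 2. Brca1 reached 24.6, 58.8 and 53.4 CPM at RMA day 4 and 20.1, 46.7 and 14.7 at RMA day 9. In RMA-KR Brca1 stood at 8.81, 11.3 and 6.52 CPM on day 2, 15.9, 18.1, 26.8, 24.2 and 28.6 on day 7 and 23.6, 19.6 and 3.37 on day 14. All RMA day 4, RMA day 9 and RMA-KR day 7 libraries were above control for Brca1, and RMA-KR day 14 library 3 was below it. Brca1 had log2 fold changes against control of 2.17 ± 0.84 (SE) at RMA day 4, 1.42 ± 0.83 at RMA day 9 and 0.61 ± 0.83 at RMA-KR day 14, none called (edgeR quasi-likelihood, adjusted p = 0.23, 0.458 and 0.802). Clspn, the adaptor through which Chek1 is activated, ranged over 0.0927 to 56.7 CPM and was called at RMA day 4 with a log2 fold change of 3.99 ± 1.03 (edgeR quasi-likelihood, adjusted p = 0.0363), a call that it lost without any 1 of the 7 libraries compared (highest adjusted p 0.128).

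**Figure D3:**
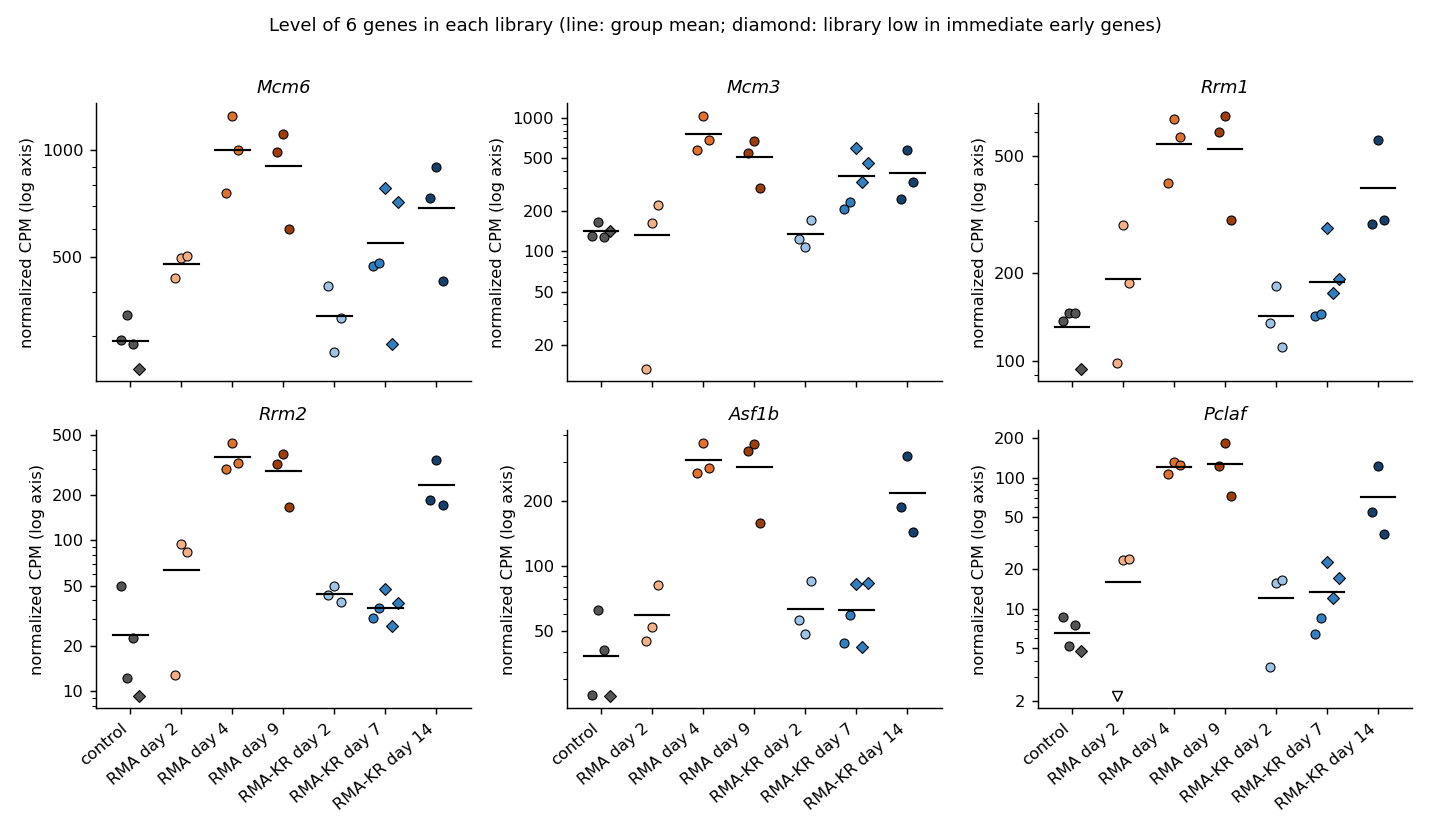
Normalized CPM, on a log axis, of 6 of the described genes in each of the 24 libraries, with a line at the group mean, diamonds for the 4 libraries low in immediate early genes and an open triangle for a count of 0. Rrm2 and Asf1b in the RMA-KR day 7 libraries stay at 27.2 to 47.7 and 42.1 to 82.7 CPM, under every RMA-KR day 14 library.

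Licensing and nucleotide genes did not keep one proportion to each other across the groups. The nucleotide genes summed to a share of the licensing genes (ratio of summed CPM) of 0.218, 0.173, 0.18 and 0.131 in the control libraries, 0.152, 0.243 and 0.189 at RMA day 2, 0.26, 0.246 and 0.277 at RMA day 4 and 0.348, 0.339 and 0.308 at RMA day 9. In RMA-KR the ratio was 0.195, 0.288 and 0.192 on day 2, 0.173, 0.144, 0.14, 0.157 and 0.116 on day 7 and 0.318, 0.345 and 0.306 on day 14. Both late groups were above all other groups, and RMA-KR day 7 was below RMA day 4 without overlap although its licensing sums of 1424 to 3814 CPM were above all control libraries (1091 to 1210). Within RMA-KR day 7, libraries 1 and 2 had ratios of 0.173 and 0.144 and the 3 libraries low in immediate early genes had 0.14, 0.157 and 0.116. This pattern was picked after the values were seen, and it is given as a description with no test.

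**Figure D4:**
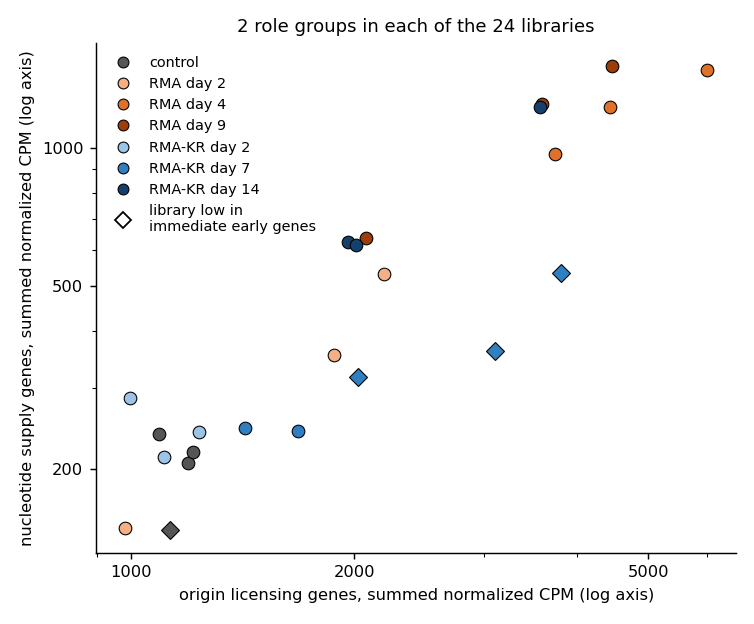
Summed normalized CPM of the 6 nucleotide genes against that of the 12 licensing genes, 1 point per library, colored by group, with diamonds for the 4 libraries low in immediate early genes. The RMA-KR day 7 libraries reach licensing sums of up to 3814 CPM with nucleotide sums of at most 534.6 CPM.

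Beyond the 53 genes, 3 further lists of replication and cell cycle genes were examined in the same comparisons. A list of 56 other replication genes had lower medians of the log2 fold change: 1.00 at RMA day 4, 0.75 at RMA day 9 and 0.38 at RMA-KR day 14. In these comparisons 7, 6 and 1 rose and none fell, against 1.65%, 1.79% and 0.983% of all tested genes called. The 1 call at RMA-KR day 14 is near the share of all genes and is no result about this list. Without the 4 libraries low in immediate early genes the counts were 4, 1 and 1. The 3 with the smallest adjusted p at RMA day 9 were the nucleoside kinase gene Dck (1.85 ± 0.30), the RNase H subunit Rnaseh2b (2.03 ± 0.50) and the polymerase delta subunit Pold2 (1.22 ± 0.31), as log2 fold changes against control (edgeR quasi-likelihood, adjusted p = 0.00119, 0.0237 and 0.0282). Without those 4 libraries Rnaseh2b and Pold2 lost this call, with log2 fold changes of 2 and 1.25 (edgeR quasi-likelihood, adjusted p 0.0937 and 0.0702). Dck kept it, at 1.94 (adjusted p 0.0041 by the same test). Dck measured 31.4, 32.5, 21.9 and 34.7 CPM in control and 27, 28.6 and 66 at RMA day 2. Dck reached 134, 199 and 171 CPM at RMA day 4 and 119, 114 and 93.1 at RMA day 9. In RMA-KR Dck stood at 36.3, 30.9 and 46.2 CPM on day 2, 36.2, 43.8, 69.2, 36.4 and 58.9 on day 7 and 89.1, 137 and 91.7 on day 14. Dck was above control in all RMA day 4, RMA day 9, RMA-KR day 7 and RMA-KR day 14 libraries. Rnaseh2b measured 16.8, 13.4, 14.1 and 13.2 CPM in control and 4, 2.37 and 14.8 at RMA day 2. Rnaseh2b reached 51, 47.1 and 48 CPM at RMA day 4 and 66, 80.2 and 30.6 at RMA day 9. In RMA-KR Rnaseh2b stood at 7.6, 28.3 and 22.8 CPM on day 2, 20.5, 23.7, 40, 17.6 and 20.4 on day 7 and 33.3, 50.7 and 28.8 on day 14. Rnaseh2b was above control in the same 4 groups, with control between 13.2 and 16.8 CPM. Pold2 measured 33.8, 50.1, 89.5 and 62.1 CPM in control and 47.1, 59.7 and 67 at RMA day 2. Pold2 reached 121, 207 and 152 CPM at RMA day 4 and 133, 188 and 90.7 at RMA day 9. In RMA-KR Pold2 stood at 97.5, 86.2 and 64.7 CPM on day 2, 82.4, 72.2, 132, 101 and 100 on day 7 and 68.5, 133 and 90.8 on day 14. For Pold2 control library 3 reached into the RMA-KR day 14 values, and the RMA day 4 and day 9 libraries were above it.

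Of 10 G1/S cyclins, kinases and E2F factors, 4 rose at RMA day 4, 4 at RMA day 9 and 3 at RMA-KR day 14, against 1.65%, 1.79% and 0.983% of all tested genes called. None fell, and the medians were 2.91, 2.67 and 2.35. Without those 4 libraries the counts were 5, 5 and 1. At RMA day 9 Cdk2, the S phase kinase, had a log2 fold change of 1.89 ± 0.31, Ccne1, the cyclin E gene, 2.69 ± 0.50 and E2f2, an activating E2F, 2.66 ± 0.56 (edgeR quasi-likelihood, adjusted p = 0.00119, 0.00338 and 0.00857). Cdk2 measured 23.8, 23, 25.9 and 31.1 CPM in control and 73.5, 82.7 and 41.2 at RMA day 2. Cdk2 reached 92.6, 129 and 111 CPM at RMA day 4 and 99.2, 120 and 68.9 at RMA day 9. In RMA-KR Cdk2 stood at 38.6, 20.1 and 38.4 CPM on day 2, 32, 60.6, 49.9, 42 and 28.6 on day 7 and 45, 66.1 and 41.5 on day 14. Cdk2 was above all control libraries at RMA day 2, RMA day 4, RMA day 9 and RMA-KR day 14. Ccne1 measured 17.2, 8.29, 16.3 and 13.3 CPM in control and 12.1, 19.1 and 27.8 at RMA day 2. Ccne1 reached 70.9, 141 and 113 CPM at RMA day 4 and 71.2, 125 and 69.7 at RMA day 9. In RMA-KR Ccne1 stood at 2.13, 11 and 14.2 CPM on day 2, 27, 9.09, 45.9, 30.6 and 39.1 on day 7 and 58.7, 60.3 and 73.7 on day 14. Ccne1 was lowest in RMA-KR day 2 library 1 and above control in all RMA day 4, RMA day 9 and RMA-KR day 14 libraries. E2f2 measured 17.6, 10.3, 3.79 and 9.91 CPM in control and 1.87, 17.6 and 13.6 at RMA day 2. E2f2 reached 68.4, 78 and 58.6 CPM at RMA day 4 and 65.1, 82.6 and 48 at RMA day 9. In RMA-KR E2f2 stood at 5.29, 7.43 and 18.1 CPM on day 2, 23.5, 16.9, 14.8, 8.08 and 23.6 on day 7 and 47.7, 72.4 and 51.7 on day 14. E2f2 was above control in the same 3 groups and overlapped it elsewhere.

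The 20 genes of G2 and mitosis had the highest medians: 3.75 at RMA day 4, 3.79 at RMA day 9 and 3.48 at RMA-KR day 14. In these comparisons 18, 17 and 15 rose and none fell, against 1.65%, 1.79% and 0.983% of all tested genes called. Without the 4 libraries low in immediate early genes 11, 12 and 8 rose, and the medians were 3.46, 3.48 and 3.17. At RMA-KR day 7 their median log2 fold change was 0.30, next to 0.88 for the 53 replication genes, and without the 4 libraries low in immediate early genes the medians were 0.20 and 0.28. On day 2 it was 1.13 in RMA and 1.11 in RMA-KR, next to 0.65 and 0.01 for the 53 genes. None of the 20 was called on day 2 in either line, and without the 4 libraries their medians were 0.94 and 0.89. In RMA day 2 library 1 there were no counts of Cdk1, Bub1b or Ube2c. At matched intermediate stage, 13 of the 20 were called as higher in RMA day 4 than in RMA-KR day 7 (0.503% of all tested genes called). From RMA-KR day 7 to day 14, 10 rose (0.298% of all tested genes called), and the 2 medians were 3.18 and 2.98. Without those 4 libraries the counts were 3 and 1 and the medians 3.19 and 2.83. Pbk, a mitotic kinase, Kif11, a spindle motor, and Top2a, the topoisomerase that untangles chromosomes, had log2 fold changes of 6.79 ± 0.92, 3.69 ± 0.51 and 3.43 ± 0.50 at RMA day 9 (edgeR quasi-likelihood, adjusted p = 0.000288, 0.000295 and 0.000442). Pbk measured 0.739, 0, 1.79 and 0.0893 CPM in control and 4.8, 16.9 and 21.2 at RMA day 2. Pbk reached 52.4, 72 and 72 CPM at RMA day 4 and 63.3, 110 and 41.5 at RMA day 9. In RMA-KR Pbk stood at 5.01, 8.19 and 7.48 CPM on day 2, 4.23, 10.5, 15.5, 4.55 and 2.65 on day 7 and 20.9, 76.9 and 16.9 on day 14. All 6 tumor groups lay above control for Pbk. Control libraries held very few counts of it, so the size of its fold change is poorly known. Kif11 measured 35.7, 18.4, 21.1 and 5.62 CPM in control and 23.2, 12.9 and 41.8 at RMA day 2. Kif11 reached 208, 285 and 289 CPM at RMA day 4 and 220, 370 and 183 at RMA day 9. In RMA-KR Kif11 stood at 48.5, 52.2 and 38.5 CPM on day 2, 18.7, 36.4, 9.63, 13.9 and 20.5 on day 7 and 192, 296 and 91.5 on day 14. RMA-KR day 2 lay above control for Kif11, as did RMA day 4 and both late groups, and RMA-KR day 7 overlapped control, including libraries 3 and 5, which were high in Mcm3 and Dtl. Top2a measured 103, 41.8, 45.6 and 44 CPM in control and 29.6, 196 and 98.2 at RMA day 2. Top2a reached 572, 817 and 718 CPM at RMA day 4 and 611, 834 and 434 at RMA day 9. In RMA-KR Top2a stood at 49.4, 123 and 166 CPM on day 2, 72.8, 115, 151, 80.2 and 109 on day 7 and 370, 735 and 265 on day 14. Every RMA day 4, RMA day 9 and RMA-KR day 14 library was above every control and RMA-KR day 7 library for Top2a.

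**Figure D5:**
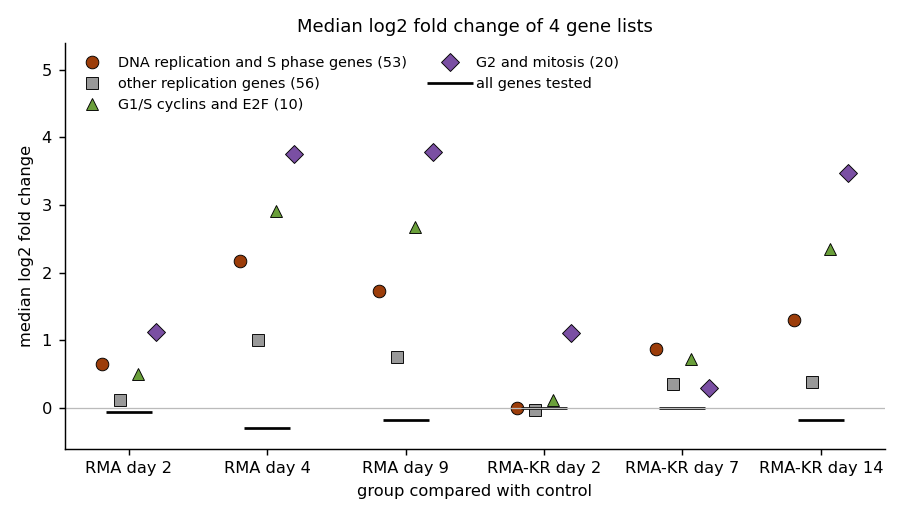
Median log2 fold change against control of the 53 replication genes and of the lists of other replication genes, G1/S genes and G2 and mitosis genes, for the 6 tumor groups. At RMA-KR day 7 the 53 genes have a median of 0.88 and the G2 and mitosis genes 0.30, and at RMA-KR day 14 1.30 and 3.48. Without the 4 libraries low in immediate early genes the RMA-KR day 7 medians are 0.28 and 0.20.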

How the data were processed

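Total RNA of sorted splenic NK cells was made into polyA libraries with the mRNAseq Library Prep Kit V2 (Lexogen). Per the submitters' processing notes and methods, the authors trimmed reads with cutadapt 1.10, removed ribosomal reads with Bowtie2 2.2.8, aligned to mm10 with STAR 2.5.3a and counted reads per gene with htseq-count 0.6.1p1 in union mode on Ensembl 96 genes. The deposited table holds these raw counts for 24 libraries, which were used here. Its normalized columns and the authors' DESeq2 1.16.1 comparisons were not used. The median transcript length per gene, in bases per the file headers, was used only for levels per kilobase. It need not be the length of the transcript expressed in NK cells.

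Raw counts were filtered with filterByExpr, scaled by TMM and fitted in edgeR 4.0.16 (R 4.3.3; quasi-likelihood, robust, 1 mean per group over all 24 libraries), with two-sided tests and Benjamini-Hochberg adjustment over 17097 genes. A gene was called with adjusted p under 0.05 and more than a 2-fold difference. The procedure was tested on simulated data, and the outcome is not used to weigh any result here. Alternatives were DESeq2 1.42.0 (default and with a beta prior), DESeq2 size factors in edgeR, other filters on low counts, the replicate number as a block, only the groups compared, and each library left out. Members and lists were chosen with earlier results of these data known. Values per library are given for genes picked by a rule: the highest per kilobase in each role, the 3 highest and 3 lowest in each late comparison, members below control there, the 5 smallest adjusted p (or all called) in the other comparisons, and the 3 smallest at RMA day 9 in each other list. The labels do not say whether libraries came from separate mice. The paper gives 3 mice per group for its late and control sequencing, where this series has 4 control libraries, so p-values measure the spread between these libraries. Between any 2 libraries of a group the counts differed by more than sampling noise (chi-square per degree of freedom 17.9 to 95.2). Reads matching several places are not counted by htseq-count's defaults, and the effect on members with pseudogene copies was not tested.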

Additional observations from a re-analysis of the deposited data

Results flagged for a closer look

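Slbp measured 140 normalized CPM in control library 4, and the nearest of the other 3 control libraries was at 189, so that this library lay apart by 0.877 of the range of its group. Of 46 such looks at the lowest and highest library of a group, 1 stood out in this way. The looks covered control and RMA-KR day 7 only, since groups of 3 libraries were too small for them. The limit used is one that chance passes in about 1 of 20 groups, so 1 such library is no more than chance gives. Control library 4 is also 1 of the 4 libraries low in immediate early genes. The others of that set, RMA-KR day 7 libraries 3, 4 and 5, had Slbp values of 222, 141 and 150, against 215 and 243 in libraries 1 and 2. Whether the set bears on Slbp was not tested.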

How the results depend on the processing

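The counts of called members in the 14 comparisons were recomputed with 8 other settings listed at the outset and with 2 chosen after seeing the data. No called member changed direction in any of them, and with DESeq2 size factors in edgeR all 14 counts stayed within 1.5 times the values in the report. The other settings moved these counts past that limit, and the cause was not tested. DESeq2 with default settings gave 34 in RMA day 9 against control, 1 in RMA-KR day 7 against control, 18 in RMA-KR day 14 against control, 2 in RMA day 2 against RMA-KR day 2, 8 in RMA day 4 against RMA-KR day 7, 22 in RMA day 4 against RMA day 2 and 8 in RMA-KR day 7 against RMA-KR day 2. With the beta prior DESeq2 gave 32 in RMA day 9 against control, 1 in RMA-KR day 7 against control, 18 in RMA-KR day 14 against control, 8 in RMA day 4 against RMA-KR day 7, 21 in RMA day 4 against RMA day 2 and 7 in RMA-KR day 7 against RMA-KR day 2. No filter on low counts gave 6 in RMA day 2 against control, 33 in RMA day 9 against control, 12 in RMA-KR day 7 against control, 28 in RMA-KR day 14 against control, 6 in RMA day 2 against RMA-KR day 2, 22 in RMA day 4 against RMA-KR day 7, 27 in RMA day 4 against RMA day 2, 11 in RMA-KR day 7 against RMA-KR day 2 and 5 in RMA-KR day 14 against RMA-KR day 7. Asking for 10 counts in every library, which left 39 members, gave 6 in RMA-KR day 7 against RMA-KR day 2. The replicate block gave 4 in RMA-KR day 14 against control, 2 in RMA day 4 against RMA-KR day 7 and 0 in RMA-KR day 14 against RMA-KR day 7. Fitting only the groups compared gave 31 in RMA day 9 against control, 8 in RMA day 4 against RMA-KR day 7, 3 in RMA day 4 against RMA day 2 and 1 in RMA-KR day 14 against RMA-KR day 7. A term for the 4 libraries low in immediate early genes, chosen after seeing the data, gave 2 in RMA day 4 against RMA-KR day 7 and 0 in RMA-KR day 14 against RMA-KR day 7. Leaving those 4 libraries out, also chosen after seeing the data, gave 4 in RMA-KR day 14 against control and 0 in RMA-KR day 14 against RMA-KR day 7. With each library of the groups compared left out in turn, the count ranged over 19 to 29 in RMA day 4 against control, 9 to 29 in RMA day 9 against control, 0 to 1 in RMA-KR day 7 against control, 2 to 10 in RMA-KR day 14 against control, 0 to 1 in RMA day 2 against RMA-KR day 2, 2 to 4 in RMA day 4 against RMA-KR day 7, 2 to 13 in RMA day 4 against RMA day 2, 0 to 5 in RMA-KR day 7 against RMA-KR day 2, 1 to 2 in RMA-KR day 14 against RMA-KR day 7 and 0 to 1 in change from day 2 to late in RMA against that in RMA-KR, and was 0 throughout in RMA day 2 against control, RMA-KR day 2 against control, RMA day 9 against RMA-KR day 14 and RMA day 9 against RMA day 4. Deviations of same-numbered libraries of different groups had correlations of -0.118 to 0.202 over 64 pairs, against -0.229 to 0.181 over 181 other pairs. Depth limits the members with libraries at or under 3 counts, among them Chek1, Exo1, Mcm10 and Gins2.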
